A study of Mus musculus with 6 samples.

Results

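The 10 genes described here encode cytoskeletal proteins of neurons: the beta tubulin *Tubb3*, the microtubule-binding proteins *Dcx*, *Stmn2*, *Mapt* and *Map2*, and the intermediate filament subunits *Nefl*, *Nefm*, *Nefh*, *Ina* and *Prph*. They were chosen by symbol, with earlier results of these data known, from the 24207 loci of the expression table. All 10 were found, 9 under these symbols and *Map2* under its older symbol *Mtap2*. RNA-seq libraries had been made from whole male mouse embryos at E9.5, 3 wildtype (*Smchd1*+/+) and 3 homozygous for a nonsense allele of *Smchd1* that came from chemical mutagenesis (*Smchd1*MommeD1/MommeD1). The labels give both groups the same mixed background of C57Bl6/J and FVB/n, whereas the study's text describes these embryos as coming from a backcross to a different strain, so the background is uncertain. The mutation is in the germ line, so every tissue of the mutant embryos carries it. The table holds 1 pooled value per genotype, in fragments per kilobase of transcript scaled to the mapped fragments (FPKM), so the values of single embryos are not shown and no spread, test or interval could be given. *Smchd1* itself, a chromatin protein needed for X inactivation, stood at 2.12 FPKM in mutants and 34.0 FPKM in wildtype embryos, a log2 ratio of -3.94.

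Neurons are long and narrow cells, and their shape rests on microtubules and neurofilaments. Microtubules are polymers of alpha and beta tubulin. Class III beta tubulin, the product of *Tubb3*, is made almost only in neurons and begins to be made around the last division. Doublecortin (*Dcx*) stabilises microtubules in migrating young neurons, stathmin-2 (*Stmn2*) binds tubulin dimers in growth cones, tau (*Mapt*) lines axonal microtubules and MAP2 (*Map2*) lines those of dendrites. Alpha-internexin (*Ina*), peripherin (*Prph*) and the light and medium neurofilament proteins (*Nefl*, *Nefm*) appear early in axons, while the heavy subunit (*Nefh*) accumulates later, as axons mature. At E9.5 the first neurons are leaving the cycle in the hindbrain, spinal cord and cranial ganglia.

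The genes lie on 8 chromosomes, and *Nefl* and *Nefm* are next to each other. For 5 of the 10 genes a RefSeq promoter sequence (GRCm38, the build called mm10) was at hand, namely *Tubb3*, *Dcx*, *Map2*, *Ina* and *Prph*. The 250 bases before the start site of *Tubb3* (chr8:123411303-123411552, plus strand) and *Ina* (chr19:47014431-47014680, plus strand) are printed 5′ to 3′, because these are a tubulin gene and a filament gene with almost the same ratio between genotypes. Capitals mark an E-box, CANNTG, the motif bound by proneural and other basic helix-loop-helix factors.
*Tubb3*: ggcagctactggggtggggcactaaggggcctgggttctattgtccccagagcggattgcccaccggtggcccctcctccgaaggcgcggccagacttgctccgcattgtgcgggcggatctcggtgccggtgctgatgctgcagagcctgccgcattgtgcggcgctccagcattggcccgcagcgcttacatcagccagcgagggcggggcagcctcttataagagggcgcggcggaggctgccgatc
*Ina*: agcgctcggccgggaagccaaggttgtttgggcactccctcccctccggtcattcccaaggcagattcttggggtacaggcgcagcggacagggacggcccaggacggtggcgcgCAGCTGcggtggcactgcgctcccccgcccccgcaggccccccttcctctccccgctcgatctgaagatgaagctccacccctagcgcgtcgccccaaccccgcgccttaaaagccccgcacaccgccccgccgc
Of the 6 windows of the 5 genes, only that of *Ina* held an E-box, at position -135 from the start site, and its letters were CAGCTG. E-boxes were found in 66.2% and CAGCTG, which is contained in CANNTG, in 13.0% of 32817 promoter windows of the same length. The *Tubb3* window held GGGCGG at -138 and -46, CCAAT at -77 and TATAA at -31 and -30, the last pair being overlapping matches on opposite strands. The *Ina* window held GGGCGG at -111 and -12 and neither CCAAT nor TATAA. Searched on both strands, GGGCGG was present in 32.7%, CCAAT in 33.8% and TATAA in 22.8% of all windows. The GC content was 68% for *Tubb3* and 70.8% for *Ina*, and 41.6% for the outer *Dcx* start site, against a median of 52.4% over all windows. Such matches are letters in a window and do not show binding.

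Transcript levels of 9 of the 10 genes were higher in *Smchd1*MommeD1/MommeD1 than in *Smchd1*+/+ embryos, and that of *Nefh* was close to equal at a very low level. The mean of both genotypes reached 1 FPKM for 7 genes, which are called measured. All 7 measured genes were higher in mutants, by 1.88-fold for *Map2* to 3.17-fold for *Dcx*, with a median of 2.70-fold. These folds and all log2 ratios were taken as mutant over wildtype after adding 0.1 FPKM to each value. At least 2-fold higher were 5 of the 7, *Dcx*, *Nefm*, *Ina*, *Tubb3* and *Nefl*, where 0.988% of the 12345 measured loci were at least 2-fold higher and 0.502% at least 2-fold lower. At least 1.5-fold higher were all 7, where 3.54% of measured loci were at least 1.5-fold higher and 1.46% lower. The genes were picked with this contrast known, so the counts are a description and nothing is read from them against the background. The median log2 ratio was 1.43 over the measured members and -0.0073 over all measured loci, whose 5th and 95th percentiles were -0.32 and 0.47. In whole embryos, more cells of a type and more RNA per cell of that type cannot be told apart.

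**Figure D1:**
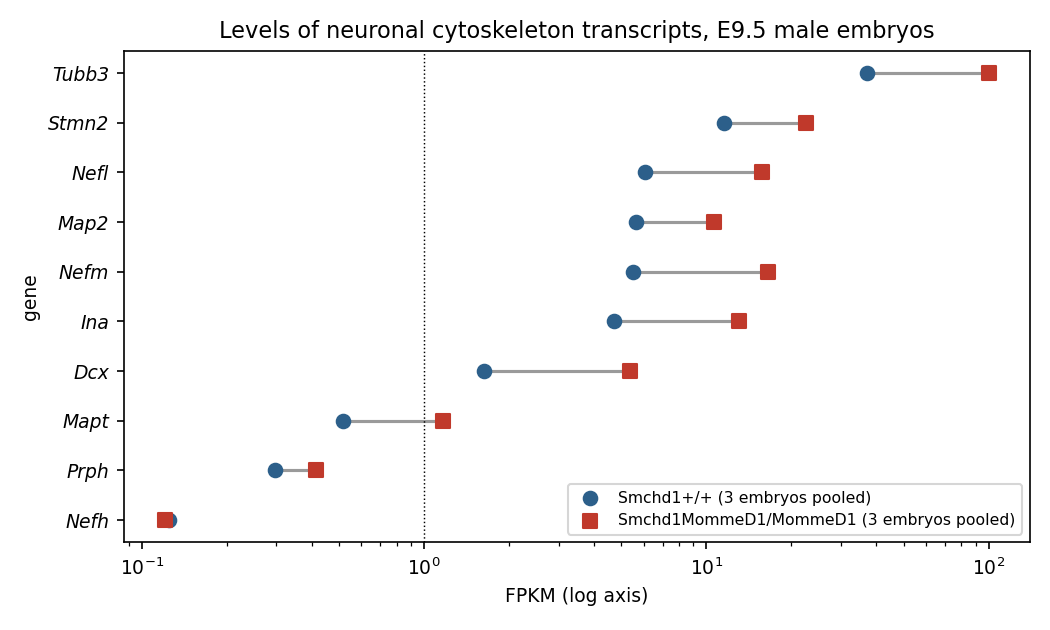
Pooled level of each gene in FPKM on a log axis, with circles for *Smchd1*+/+ and squares for *Smchd1*MommeD1/MommeD1 embryos, 3 of each, and a dotted line at 1 FPKM. The square lies to the right of the circle for 9 genes, and the pair overlaps for *Nefh*.

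The plot of pooled levels shows that the order of the genes by level was much the same in both genotypes. The rank was identical for 6 of the 10 genes: *Tubb3* came first, *Stmn2* second, *Dcx* seventh, *Mapt* eighth, *Prph* ninth and *Nefh* last. Between these lay *Nefl*, *Nefm*, *Ina* and *Map2*, within 4.69 to 6.04 FPKM in wildtype and 10.6 to 16.6 FPKM in mutant embryos. Summed over the 10 genes, the level was 185.7 FPKM in mutants and 72.9 FPKM in wildtype embryos, 2.55-fold apart. *Tubb3* alone made up 53.8% of the mutant and 50.7% of the wildtype sum. Without it the sums were 85.8 and 35.9 FPKM.

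*Tubb3* (chr8:123411553-123422015, plus strand, 4 exons) was the most abundant of the genes, at 99.9 FPKM in mutants and 37.0 FPKM in wildtype embryos. The difference of 63.0 FPKM is the largest of the 10 in absolute terms, and the log2 ratio was 1.43. Among the 3236 loci with a mean of 20 to 100 FPKM, the 5th and 95th percentiles of the log2 ratio were -0.25 and 0.23. *Tubb3* was 1 of 8 of these loci (0.247%) at least 2-fold higher in mutants. It was picked with this contrast known, so its place among them is a description only. None of the 100-base windows of its transcript occurs in another annotated gene.

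Among the microtubule-binding genes, *Dcx* had the highest ratio of the set with 0.1 FPKM added, but not with 1 FPKM added. Its level was 5.37 FPKM in mutants and 1.62 FPKM in wildtype embryos, a log2 ratio of 1.67. It was also the least abundant of the measured genes, and in its band of 1 to 5 FPKM ratios spread more widely, from -0.46 to 0.76 between the 5th and 95th percentiles. *Dcx* is the X-linked member (chrX:143855842-143933396, minus strand). The embryos were all male, and the 431 measured X-linked loci had a median log2 ratio of -0.066, with 4 of them (0.928%) at least 2-fold higher.

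*Stmn2* (chr3:8509527-8561604, plus strand) stood at 22.6 FPKM in mutants and 11.5 FPKM in wildtype embryos. Its log2 ratio of 0.97 lies just under the 2-fold line. *Map2* (chr1:66175202-66442583, plus strand) stood at 10.6 and 5.62 FPKM, a log2 ratio of 0.91, the lowest of the measured genes. *Mapt* (chr11:104229409-104332090, plus strand) was scarce, at 1.17 FPKM in mutants and 0.516 FPKM in wildtype embryos. Its mean of 0.842 FPKM kept it out of the measured set, and its log2 ratio was 1.04. As a share of the sum of this pair of related proteins, *Mapt* made up 9.89% in mutants and 8.40% in wildtype embryos, so MAP2 transcripts were the main form in both.

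**Figure D2:**
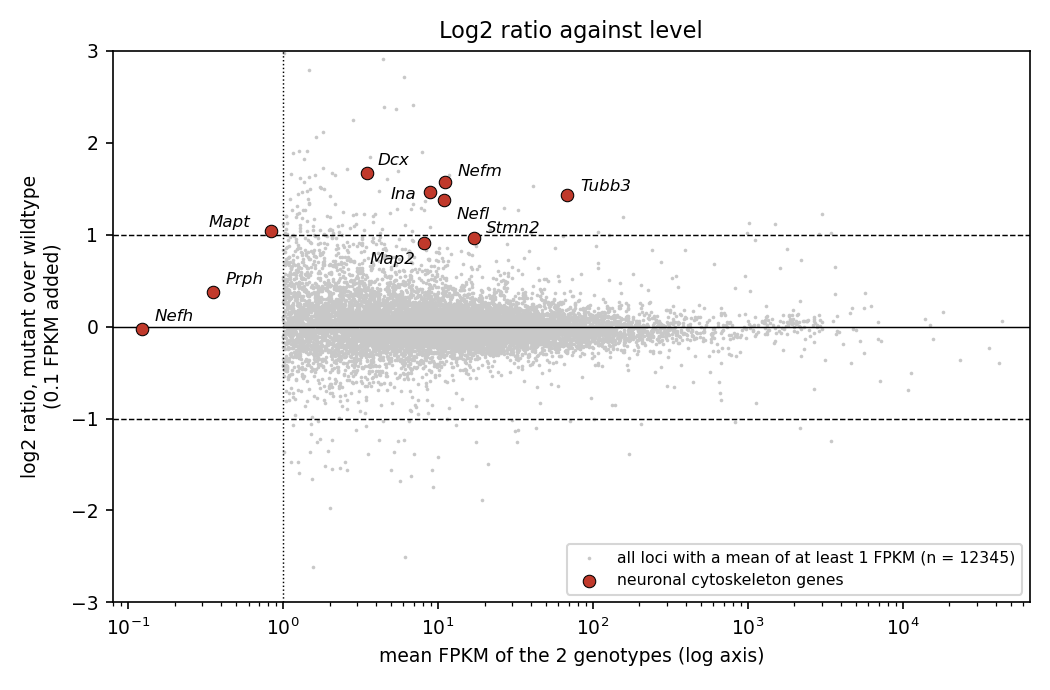
Log2 ratio of mutant over wildtype FPKM, with 0.1 FPKM added, against the mean of both genotypes on a log axis, for 12345 measured loci in grey and the 10 neuronal cytoskeleton genes in red, with dashed lines at 2-fold. The 7 genes to the right of the dotted line at 1 FPKM lie between 0.91 and 1.67, and 11 other loci fall outside the axis limits of -3 and 3.

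The 3 abundant filament genes were higher in mutants by nearly equal factors. *Nefl* (chr14:68083863-68089095, plus strand) stood at 15.8 FPKM in mutants and 6.04 FPKM in wildtype embryos, a log2 ratio of 1.37. *Nefm* (chr14:68119545-68125004, minus strand) stood at 16.6 and 5.51 FPKM, with 1.57. *Ina* (chr19:47014681-47025327, plus strand) stood at 13.1 and 4.69 FPKM, with 1.46. *Nefl* exceeded *Nefm* in wildtype embryos and *Nefm* exceeded *Nefl* in mutants, but both gaps are under 1 FPKM and have no error estimate.

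Low levels were found for the other filament subunits in both genotypes. *Prph* (chr15:99053579-99058978, plus strand), the subunit of peripheral and motor neurons, stood at 0.414 FPKM in mutants and 0.296 FPKM in wildtype embryos, a log2 ratio of 0.38. *Nefh* (chr11:4938754-4948064, minus strand) stood at 0.121 and 0.125 FPKM, a log2 ratio of -0.03. The authors' software had marked both as too low to test.

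The make-up of the filament transcripts was therefore close to the same at very different totals. The 5 filament genes summed to 46.0 FPKM in mutants and 16.7 FPKM in wildtype embryos. *Nefl* held 34.3% of the mutant and 36.2% of the wildtype sum, *Nefm* 36.1% and 33.1%, and *Ina* 28.5% and 28.2%. *Prph* held 0.900% and 1.77%, and *Nefh* 0.263% and 0.751%.

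The beta tubulins were different, since *Tubb3* is a minor isotype in a whole embryo. The summed beta tubulin level was 2223 FPKM in mutants and 1967 FPKM in wildtype embryos, a log2 ratio of 0.18. *Tubb3* held 4.50% of it in mutants and 1.88% in wildtype embryos. The broadly expressed *Tubb5* held 62.5% and 67.0%, and *Tubb4b* 14.3% and 16.5%. *Tubb2a* and *Tubb2b*, near-identical isotypes abundant in neural tissue, are a single entry of the table and together held 15.3% and 10.6%. *Tubb6* held 2.76% and 3.44%, *Tubb4a* 0.553% and 0.544%, and *Tubb1*, the isotype of platelets and their precursors, 0.150% and 0.0506%.

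**Figure D3:**
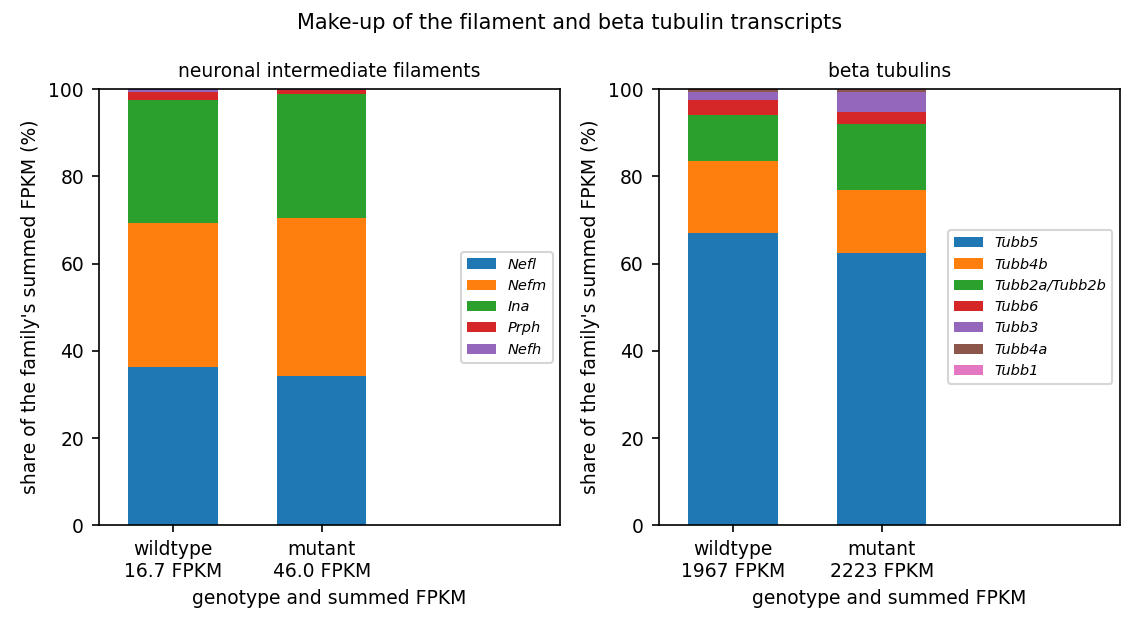
Share of each gene in the summed FPKM of the neuronal intermediate filament genes (left) and the beta tubulin genes (right), in percent, for the pooled wildtype and mutant embryos, with the sums under the bars. The filament shares are similar at 16.7 and 46.0 FPKM, while the share of *Tubb3* is 1.88% in wildtype and 4.50% in mutant embryos.

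The number of reads behind each value is not given in the table. An approximate count was obtained, after the data had been seen, from 943 single-exon olfactory receptor loci. Of these, 22 were above 0 in mutants and 16 in wildtype embryos. Values within a chosen window of 0.015 to 0.03 FPKM × kb were taken as a single read. The length used was that of the longest protein-coding RefSeq transcript of each gene, 9074 bases for *Dcx*, so the counts depend on that choice. On this scale *Tubb3* rested on about 9600 reads in mutants and 3200 in wildtype embryos. *Dcx* rested on about 2500 and 680, *Nefl* on 2800 and 940, *Nefm* on 2900 and 850, *Ina* on 2200 and 700, *Stmn2* on 2400 and 1100, and *Map2* on 3400 and 1600. *Mapt* had about 320 and 130. *Prph* had about 40 and 25 and *Nefh* about 25 and 23. These counts carry no interval, since the spread between embryos is not shown.

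The nearest measured genes on either side of each member mostly gave ratios near 0. Loci under 1 FPKM were passed over, so some of these neighbours lay far off. The widest gaps were 956 kb from *Stmn2* to *Fam164a* and 897 kb from *Map2* to *Pikfyve*. Taking the nearest measured locus on each side, there were 18 different neighbours that are not members, 9 higher and 9 lower in mutants, with a median log2 ratio of -0.0036. Beside *Tubb3* lay *Tcf25* (58.4 FPKM in mutants, 58.2 FPKM in wildtype embryos, log2 ratio 0.01) and *Def8* (18.5 and 16.7 FPKM, 0.15). Beside *Dcx* lay *Capn6* (-0.01) and *Alg13* (-0.23), the lowest of the neighbours. *Stmn2* lay between *Fam164a* (0.01) and *Hey1* (0.06), *Mapt* between *Arf2* (0.15) and *1700081L11Rik* (-0.07), and *Map2* between *Pikfyve* (-0.11) and *Rpe* (0.03). *Prph* lay between *Tuba1c* (-0.06) and *Troap* (0.14), and *Ina* between *Nt5c2* (0.08) and *Pcgf6* (-0.21). The neighbours of *Nefh* were *Thoc5* and *Ap1b1*, both at -0.06.

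The *Nefl* and *Nefm* locus was the exception. On its outer sides were *Dock5*, at -0.20, and *A230070E04Rik*, a long noncoding RNA gene that overlaps the start of *Nefm*. *A230070E04Rik* stood at 11.9 FPKM in mutants and 4.58 FPKM in wildtype embryos, a log2 ratio of 1.36, the only neighbour at least 2-fold apart. The spans of the 2 genes overlap, but none of the 100-base windows of the *Nefm* transcript used occurs in another annotated gene. Of the 100-base windows of the *Nefl* transcript, 30.8% also occur in an annotated longer *Nefm* transcript of the other strand. The libraries did not keep the strand, so which gene reads from those windows came from cannot be told. The loci as counted were apart, chr14:68083868-68089059 for *Nefl*, shared with no other entry, and chr14:68119545-68131371 for *Nefm*. Such reads therefore lie in the *Nefl* locus and outside that of *Nefm*. For *Ina*, 11.4% of the windows are shared with *Nt5c2*, which was level in both genotypes.

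Most other genes of the microtubule and filament systems had ratios closer to 0. These lists were not limited to genes of neurons, so their medians are not a like comparison for the members. Of 38 measured genes for other microtubule-binding proteins, 25 were higher and 13 lower, with a median log2 ratio of 0.05. At least 2-fold higher were 2, both relatives of *Stmn2* with mainly neural expression: *Stmn4* (2.25 FPKM in mutants, 0.737 FPKM in wildtype embryos, 1.49) and *Stmn3* (11.1 and 4.46 FPKM, 1.29). *Stmn1*, the stathmin of dividing cells, stood at 560.0 and 487.2 FPKM. The lowest were *Camsap3* (-0.28) and *Map7* (-0.24), which bind microtubules in epithelia among other tissues. Between these extremes lay other structural microtubule proteins, with log2 ratios of 0.73 for *Map6*, 0.51 for *Map1a*, 0.36 for *Map1b* and 0.02 for *Map4*. The *Dcx* relatives *Dclk1* and *Dclk2* were at 0.48 and 0.28, and the growth cone proteins *Dpysl4* and *Crmp1* at 0.79 and 0.62.

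Of 13 measured entries for other tubulins, 9 were higher and 4 lower, 1 of them (*Tubb1*) at least 2-fold, with a median log2 ratio of 0.08. The highest were *Tubb1* (1.65) and the joint entry of *Tubb2a* and *Tubb2b* (339.7 and 208.8 FPKM, 0.70), and the lowest *Tube1* (-0.31) and *Tubb6* (-0.14). The abundant alpha tubulin *Tuba1a*, which is enriched in young neurons, stood at 1173 FPKM in mutants and 895.4 FPKM in wildtype embryos, and *Tuba1b* at 1986 and 1933 FPKM. Tubulin folding and modifying enzymes had a median of 0.11 over 18 genes, and none was 2-fold apart. They ran from the folding factor *Tbce* (-0.28) and its relative *Tbcel* (-0.09) to the deglutamylase *Agbl5* (0.26) and the acetyltransferase *Atat1* (0.40).

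Kinases that phosphorylate tau and MAP2, listed together with activators of Cdk5, were mostly level as well, with a median of 0.08 over 12 genes. The exception was *Cdk5r2*, a neuronal activator of Cdk5, at 2.98 FPKM in mutants and 1.05 FPKM in wildtype embryos (1.42). *Cdk5* was at 0.35, its other activator *Cdk5r1* at -0.04 and *Mapk8* at -0.11. Among 18 genes of the axonal membrane skeleton and growth cone the median was 0.19. *Coro1a* (5.36 and 2.28 FPKM, 1.20), an actin-binding protein also found in leukocytes, and *Nfasc* (0.92), an adhesion protein of the axon initial segment, were highest, and *Cap2* (-0.45) and *Sptbn1* (-0.18) lowest. *Gap43*, a growth cone protein, stood at 39.9 FPKM in mutants and 31.4 FPKM in wildtype embryos.

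The other intermediate filament genes, nuclear lamins among them, did not share a direction. Of 12 measured genes, 8 were higher and 4 lower, none 2-fold apart, with a median of 0.16. The basal keratins *Krt5* (0.89) and *Krt14* (0.68) were highest, and the simple epithelial keratins *Krt8* (46.8 and 73.1 FPKM, -0.64) and *Krt18* (42.3 and 65.4 FPKM, -0.63) lowest. *Vim* and *Nes*, the filament genes of neural progenitors and mesenchyme, stood at 410 and 279 FPKM (0.55) and at 59.1 and 41.2 FPKM (0.52).

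**Figure D4:**
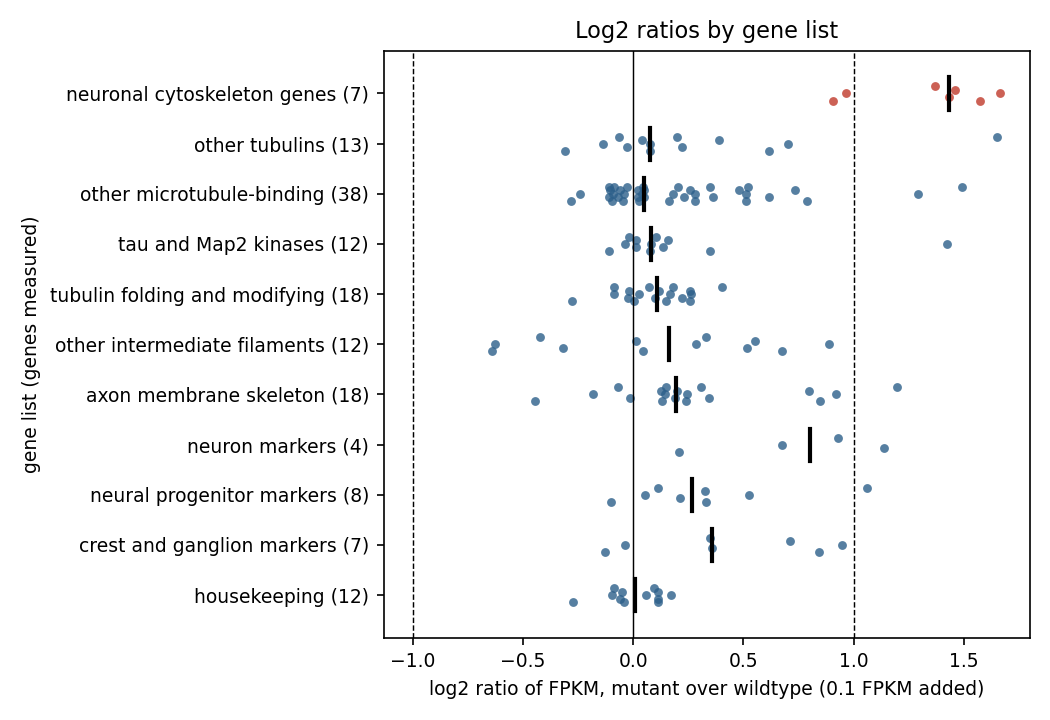
Log2 ratio of mutant over wildtype FPKM, with 0.1 FPKM added, of each measured gene (points) by gene list, with the list's median as a black bar, the number of measured genes in brackets and dashed lines at 2-fold. The neuronal cytoskeleton genes have a median of 1.43, the neuron markers 0.80 and the other cytoskeletal lists between 0.05 and 0.19.

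General markers of neurons were higher in mutants too. All 4 measured neuron markers of 8 listed were higher, with sums of 26.7 and 16.0 FPKM over the list: the RNA-binding proteins *Elavl3* (1.14) and *Elavl4* (0.93), and the adhesion proteins *L1cam* (0.67) and *Ncam1* (0.21). The other 4 had a mean under 1 FPKM, among them *Snap25* at 1.28 and 0.476 FPKM. Neural progenitor markers were closer to level, with a median of 0.27 over 8 genes, from *Pax6* (-0.10), *Sox1* (0.05) and *Sox2* (0.11) to *Hes5* (0.52) and *Fabp7* (1.06). Of 7 neural crest and sensory ganglion markers, *Neurod1* (0.95) and *Neurog1* (0.84) were highest, and *Foxd3* (-0.13) and *Sox10* (-0.04) lowest, with a median of 0.36. The 3 measured glial markers had a median of -0.06, with *Olig2* at 0.16 and *Mbp* at -0.06, and *Gfap* and *S100b* were at or under 0.05 FPKM in both genotypes.

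Markers of other tissues also had different levels in the pooled samples. All 6 red cell markers were higher in mutants, with a median of 1.01 and sums of 12679 and 6000 FPKM, from *Hbb-y* (1.23) and *Alas2* (1.05) to *Klf1* (0.57) and *Gata1* (0.97). All 6 heart markers were lower, with a median of -0.23, from *Myl7* (-0.42) and *Nkx2-5* (-0.29) to *Myh7* (-0.13) and *Tnnt2* (-0.20). Of 8 paraxial mesoderm markers 5 were lower, with a median of -0.21, led by *Msgn1* (-1.36) and *Tbx6* (-0.81), while *Pax3* (0.18) and *Meox2* (0.07) were highest. Visceral endoderm markers had a median of -0.86 over 4 genes, from *Ttr* (-1.56) and *Apoa1* (-0.87) to *Rbp4* (-0.85) and *Afp* (0.85). This median rests on few genes and the filter sets it, since it was -1.21 when genes down to 0.1 FPKM were kept and -0.00035 when a mean of 5 FPKM was required. Of 6 trophoblast markers *Plac1* alone was measured (-0.23), and *Prl3d1*, *Tpbpa* and *Prl2c2* were at 0 in both genotypes. The part of these marker differences in the levels of the neuronal cytoskeleton genes was not tested, and a somite count or litter is not among the labels. The 12 housekeeping genes had a median of 0.01, from *Pgk1* (-0.27) and *Ywhaz* (-0.10) to *B2m* (0.17).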

How the data were processed

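RNA-seq of 6 whole male E9.5 embryos (3 per genotype) was used, grouped by the genotype in the labels. Per the submitters' notes and the study's methods, the authors aligned unstranded 100 bp single-end reads to mm10 with TopHat2 2.0.6 and Bowtie2 2.0.2 and compared the genotypes with Cuffdiff 2.0.2. The authors deposited 1 FPKM value per locus and genotype, pooled over 3 embryos and normalised by their software to transcript length and mapped fragments. The genotype of each column was taken from the study's supplementary copy of the table. Depth per sample is not given, and the precision of a value is unknown. The authors' own fold changes, test statistics, p-values and q-values in the table were not used.

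Log2 ratios were taken after adding 0.1 FPKM. Loci that their software failed to fit (134) or found too deep (1) were left out, and 12345 loci whose mean reached 1 FPKM counted as measured. With 1 pooled value per genotype there were no replicates to compare and no test was run. A 2-fold threshold was used for counts. Starts in the table count from 0; positions printed are RefSeq GRCm38.p6. Shared 100-base windows were counted in GENCODE M21 transcripts. Approximate reads used a median of 0.0193 FPKM × kb per read in mutants (15 loci) and 0.0216 in wildtype embryos (14 loci). Members and gene lists were chosen with earlier results of these data known. Named genes were the 10 members, *Smchd1*, the nearest measured neighbours, and in each list the 2 highest and 2 lowest ratios; family members and a few well-known relatives and markers were added after their values were seen. Some list genes that this rule names are not reported here. Protein sequences were not used here. The alternatives tried were other pseudocounts, filters, scalings and thresholds. Python 3.11.15, numpy 2.4.6, pandas 2.3.3 and matplotlib 3.10.9 were used, and the ratio script was tested on simulated data.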

Additional observations from a re-analysis of the deposited data

How the results depend on the processing

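Of 199 values recomputed under alternative settings, 166 moved by less than 0.1 on the log2 scale, 1 percentage point or 1.5 times for counts, and 33 moved further. No member and no value past 2-fold changed sign, but some medians did. That of the glial markers went from -0.06 to 0.16 with a mean of at least 0.1 or 5 FPKM. That of the trophoblast markers went from -0.23, a value of *Plac1* alone, to 0.03 with 0.1 FPKM. The neighbours came to 0.0037 after centring and the housekeeping genes to -0.01 after rescaling. The visceral endoderm median was -1.21 with 0.1 FPKM and -0.00035 with 5 FPKM. The 7 members measured at 1 FPKM were higher in mutants under every setting tried that kept them, and all 28 recomputed family shares stayed within the tolerance. The number of members at least 2-fold higher was 5 with no pseudocount, with 1 FPKM added, after centring on the median and after rescaling to the same total, 4 of 6 at a mean of at least 5 FPKM, and 6 of 10 at 0.1 FPKM or without a filter. At 1.5-fold it was 7. With 1 FPKM added, 54 loci were at least 2-fold higher and 39 lower, the member median was 1.28 and *Mapt* came to 0.52. Under that setting *Dcx*, at 1.28, no longer had the highest ratio and lay below *Nefm* (1.43), *Tubb3* (1.41) and *Ina* (1.31). At 1.5-fold, 437 loci were higher and 180 lower. Back at the 2-fold threshold, 357 loci were higher and 146 lower at a mean of at least 0.1 FPKM, and 385 and 162 without a filter. Both of these settings had a member median of 1.21. At a mean of at least 5 FPKM, 37 loci were at least 2-fold higher and 34 lower. The cause was not tested. No paired analysis was possible because each genotype has 1 pooled value and leaving out an embryo could not be done for the same reason. The pooled values, their unknown depth and the choice of members with the contrast known limit every ratio to a description of these samples.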
